A study of Homo sapiens with 14 samples.

Results

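The genes described here are the numbered zinc finger genes of chromosome 19, taken as all protein-coding GENCODE genes of that chromosome whose symbol is ZNF followed by a number and at most 1 letter. There were 246 of them among the 60876 genes in the files, and they made up 16.7% of the 1470 protein-coding genes of chromosome 19. The RNA came from MDA-MB-231, a mesenchymal-like triple-negative breast cancer cell line, and was captured by its poly(A) tail before sequencing. All treated cells received 5 µM of 1 compound. RBI2, which the study describes as an inhibitor of ribosome biogenesis, was compared with CX-5461, a known inhibitor of RNA polymerase I, each with labels of 10, 30 and 120 min, and with a control that the labels give no compound for. The study's methods call the control untreated and its results speak of a DMSO control. There were 2 libraries in each of the 7 groups. The sources do not say that these were separate cultures, so that each p-value measures the spread between these libraries, which may be technical. The deposited files of the libraries labelled 10, 30 and 120 min are marked 02, 10 and 30, with no unit, whereas the study's methods give the times of the labels, so every time is given as labelled and no order in time is read from the groups.

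C2H2 zinc finger proteins bind DNA with arrays of small zinc-holding loops, each of which reads a few bases. Most of those encoded on chromosome 19 lie in clusters that grew by gene duplication, and most carry a KRAB box, which recruits the corepressor TRIM28 (KAP1) and through it the histone methyltransferase SETDB1. They are known above all for silencing transposable elements. The median number of C2H2 fingers found in the 246 proteins was 12 (range 1 to 36), a KRAB-like box was found in 212, and in 34 none was found.

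A library held between 14112299 and 24849354 reads (median 16305236). The markers fixed for the line were as named for VIM, CD44, AXL, CAV1 and LGALS1, whose median level was between 292 and 2469 TPM, a level per transcript length, and ESR1, PGR, CDH1 and KRT5 had at most 5 reads in any library. GATA3, fixed as low or absent, was present at 1.82 to 3.48 TPM. Control replicate 2 stood apart. Mitochondrial genes held 20.6% of its reads and 8.14% to 11.3% of those of every other library, and 1412 genes differed over 2-fold between the control libraries, against 461 to 629 between the libraries of any other group. All 6 comparisons with the control share these libraries.

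The family was expressed at a low level. Of the 246 genes, 223 had enough reads to be tested, the other 23 had at most 53 reads in all 14 libraries together, and 4 had none. The median of the tested genes was 3.59 TPM, against 4.55 for the 227 tested ZNF genes of other chromosomes and 9.97 for all 15426 genes tested. 29 genes exceeded a mean of 10 TPM. Together the 246 genes held 0.209% to 0.313% of a library's reads. Some share sequence, and a median of 89.7% of a gene's 31-base words occurred in no other gene (range 12.5% to 100%). In 10 genes the share was under 50%, where the assignment of reads between genes that share sequence is uncertain.

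By mean TPM the highest gene was ZNF302 (chr19:34677639-34686397, + strand, GRCh38), at 481. Its level in CPM, reads scaled to the library's size by TMM and not to length, was 173 and 861 in the control libraries, 170 to 241 in the 6 RBI2 libraries and 126 to 153 in the 6 CX-5461 libraries. Thus the RBI2 and CX-5461 libraries did not overlap and control replicate 2 lay far above all others. Over all times ZNF302 was higher with RBI2 than with CX-5461 by 0.63 on the log2 scale (standard error 0.07), under the 2-fold limit used below. The adjusted p was 0.000967 in edgeR's quasi-likelihood test, after Benjamini-Hochberg correction over all genes as for every adjusted p given here. Most of its reads, 10276 in control replicate 2 alone, were assigned to 1 transcript of 854 bases, ZNF302-209, and the rest of the gene had 22.8 to 40.4 CPM in every library. ZNF302-209 and ZNF302-207 hold a run of 49 A, the longest of all 1689 transcripts of the family, whose median longest run was 5. The only other gene with a run of at least 30 A was ZNF419. What part of these values comes from reads of A runs was not tested.

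The next in level were ZNF146 (chr19:36214602-36238771, + strand), which encodes 10 fingers with no KRAB box and had 70.2 TPM, ZNF787 with 46.2, ZNF544 with 31.8 and ZNF580 with 30.0 TPM. ZNF544 hardly varied, at 42.9 to 50.1 CPM over the 14 libraries, and ZNF580 had 23.1 to 32.5. ZNF146 had 148 and 211 CPM in the control and 112 and 117 with RBI2 labelled 120 min. Its fall of -0.65 (standard error 0.16) had an adjusted p of 0.0255 from edgeR's test. The 211 CPM is that of control replicate 2, which stood apart, so the size of the fall rests in part on that library. ZNF787 had 42.4 CPM in control replicate 2 and 66.9 to 88.7 in every other library.

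The libraries of CX-5461 labelled 10 min had the lowest family level (plot of medians by library). For each gene the log2 level of a library was set against its mean over all 14, and the median over the 223 genes was -0.31 and -0.26 in these libraries. It lay between -0.12 and 0.12 in the other treated libraries, and was 0.00 in control replicate 1 and 0.28 in replicate 2. The ZNF genes of other chromosomes had -0.15 and -0.11 in the libraries of CX-5461 labelled 10 min and 0.28 in control replicate 2. The 718 other protein-coding genes of chromosome 19 had 0.05 and 0.04 in CX-5461 labelled 10 min and -0.37 in control replicate 2. For 69 of the 223 genes (30.9%) both libraries of CX-5461 labelled 10 min lay below all 12 others, against 6.19% of all genes tested and 19.4% of the other ZNF genes. In bulk RNA, fewer cells that express a gene and less RNA per cell cannot be told apart.

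**Figure D1:**
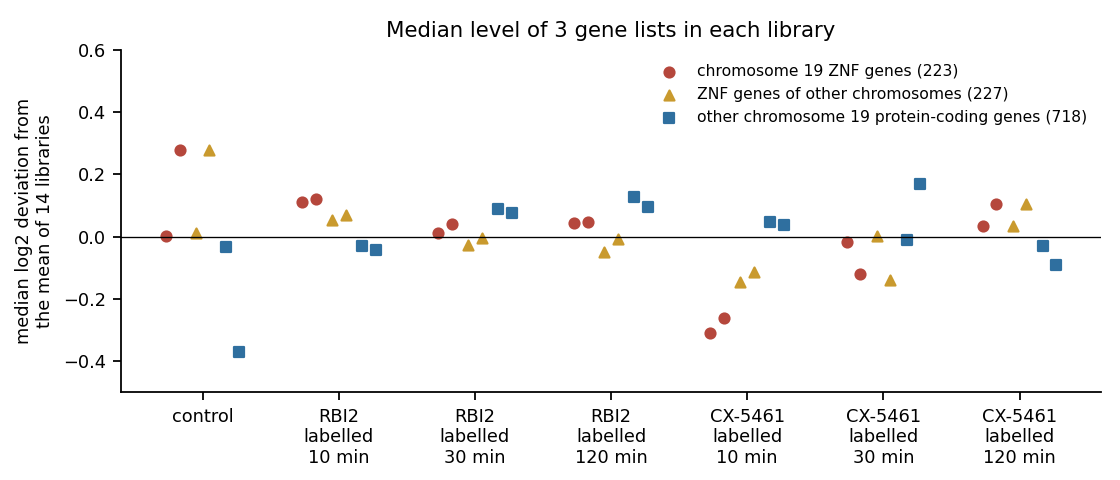
Median log2 deviation (y axis) from the mean of the 14 libraries, for 3 gene lists in the libraries of each group (x axis); each point is 1 library. Circles, the chromosome 19 ZNF genes, are lowest in the libraries of CX-5461 labelled 10 min (-0.31 and -0.26), and control replicate 2 lies apart for all 3 lists.

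The first comparison asks what CX-5461 did to the family in the libraries labelled 10 min. Against the control, 11 of the 223 tested genes were called lower, that is with an adjusted p under 0.05 in edgeR's quasi-likelihood test over all genes and at least a 2-fold change, and 0 higher (0 with DESeq2). Of all genes tested, 0.888% were called lower and 0.752% higher. The 11 are 4.93% of the 223 tested, and 7.05% of the ZNF genes of other chromosomes were called lower. At an unadjusted p with the same fold limit 18 genes were lower and 1 higher, where 4.19% of all genes passed. With no limit on the fold change 34 genes were lower, 15.2% of the family, against 2.98% of all genes, 15.9% of the other ZNF genes and 1.67% of the other genes of chromosome 19. The family's median log2 fold change was -0.46 (quartiles -0.72 and -0.12), with 181 of 223 genes below 0, and without control replicate 2 the median was -0.27. The other ZNF genes had a median of -0.27, the other genes of chromosome 19 one of 0.21, and all genes -0.04. The share lower without the fold limit was thus near that of the ZNF genes elsewhere, and the family's median was lower. The lists were not tested against each other.

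ZNF792 (chr19:34956354-34964229, - strand) fell most among the 11. It had 6.59 and 7.91 CPM in the control, 1.51 and 2.22 with CX-5461 labelled 10 min, and 5.34 to 6.64 in the other 10 libraries. The libraries of CX-5461 labelled 10 min, with 28 and 40 reads, were thus the only low ones. Its log2 fold change was -1.95 (standard error 0.21, edgeR's adjusted p = 0.000433). The protein has 12 fingers and a KRAB box.

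ZNF175 (OTK18, chr19:51571283-51592510, + strand), known as a repressor of retroviral transcription in macrophages, had 24.0 and 37.8 CPM in the control and 12.8 and 13.3 with CX-5461 labelled 10 min. Its level was 29.3 to 31.4 with RBI2 labelled 10 min and 18.2 to 27.9 in the other 8 libraries. The libraries of CX-5461 labelled 10 min lay below all others, and the control libraries, which differed widely, overlapped with the remaining groups. The log2 fold change was -1.24 (standard error 0.18, edgeR's adjusted p = 0.00373), and -0.89 without control replicate 2, short of the 2-fold limit.

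ZNF114 (chr19:48270081-48287608, + strand), with 3 fingers, was the most expressed of the 11. It had 35.0 and 41.9 CPM in the control and 17.5 and 18.1 with CX-5461 labelled 10 min, a log2 fold change of -1.11 (standard error 0.10, edgeR's adjusted p = 0.000121). Its other levels were 45.6 and 47.0 with RBI2 labelled 10 min and 28.0 to 34.0 in the remaining 8 libraries. ZNF784 (chr19:55620741-55624566, - strand), which has 6 fingers and no KRAB box, had 4.29 and 3.20 CPM in the control, 1.35 and 1.95 with CX-5461 labelled 10 min and 2.96 to 4.39 elsewhere. Its log2 fold change was -1.19 (standard error 0.23, edgeR's adjusted p = 0.0154). Both calls were lost when a library was left out. ZNF114 had -0.99 without control replicate 2, just short of the 2-fold limit, and ZNF784 had -0.95 without replicate 1 of CX-5461 labelled 10 min and -0.96 without control replicate 1.

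The others called lower were ZNF17, ZNF708, ZNF649, ZNF606, ZNF766, ZNF260 and ZNF701, with log2 fold changes from -1.22 to -1.03. ZNF649 had 5.59 and 7.91 CPM in the control, 2.91 and 3.23 with CX-5461 labelled 10 min and 4.39 to 6.64 elsewhere, and its fold change of -1.13 became -0.88 without control replicate 2. Without replicate 1 of CX-5461 labelled 10 min its adjusted p was 0.0663 in edgeR's test. ZNF709, with 3.48 and 0.479 CPM in the control, had -1.97 (adjusted p = 0.369) and ZNF302 -1.85 (adjusted p = 0.0707), both from edgeR's test, and were not called. The number called was 3 without control replicate 2 and 4 without CX-5461 labelled 10 min replicate 1, and without control replicate 1 it was 42 (38 lower and 4 higher). It was 6 with an offset for transcript length, 0 with only the 4 libraries in the model, and 2 or 5 with CX-5461 labelled 30 or 120 min as the reference.

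To show what lies before these genes, the 250 bases before the RefSeq start site (GRCh38.p14) are printed for 3 of the 4 genes that were both lower with CX-5461 labelled 10 min and higher with RBI2 at that label. Each reads 5′ to 3′ on the gene's strand, with capitals for CCGGAAG (an ETS-type motif), CCAAT (the CCAAT box) and GGGCGG (a GC box) on either strand. No motifs overlap in these windows, which are chr19:51571033-51571282 (+) for ZNF175, chr19:55624567-55624816 (-) for ZNF784 and chr19:34964230-34964479 (-) for ZNF792.
ZNF175: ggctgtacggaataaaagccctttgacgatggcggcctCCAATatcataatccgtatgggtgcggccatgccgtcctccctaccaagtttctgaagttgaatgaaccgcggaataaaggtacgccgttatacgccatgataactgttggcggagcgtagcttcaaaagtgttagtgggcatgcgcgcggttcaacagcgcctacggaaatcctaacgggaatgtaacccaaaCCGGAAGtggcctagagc
ZNF784: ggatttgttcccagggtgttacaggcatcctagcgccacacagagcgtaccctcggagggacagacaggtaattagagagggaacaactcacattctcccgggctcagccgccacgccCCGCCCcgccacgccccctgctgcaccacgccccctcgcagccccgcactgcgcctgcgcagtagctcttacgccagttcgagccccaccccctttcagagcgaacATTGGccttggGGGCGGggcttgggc
ZNF792: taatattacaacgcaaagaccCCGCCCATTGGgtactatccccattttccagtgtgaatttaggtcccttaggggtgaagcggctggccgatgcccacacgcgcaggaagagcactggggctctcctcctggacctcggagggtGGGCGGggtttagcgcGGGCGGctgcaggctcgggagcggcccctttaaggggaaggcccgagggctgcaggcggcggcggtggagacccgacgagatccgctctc
A promoter window of 300 bases, 250 before and 50 after the start, was on hand for 216 of the 246 genes (268 windows). CCGGAAG stood on either strand in 40.7% of them, in 28.6% of the windows of other ZNF genes, in 12.9% of those of all protein-coding genes and in 10.3% of all windows in the table. CCAAT stood in 134 of the 268 windows, GGGCGG in 64.9% and TATAAA in 2.61%. Those of other ZNF genes had 39.4%, 56.4% and 5.57%, and those of protein-coding genes 34.9%, 56.8% and 9.45%. In the 32 windows of genes lower with CX-5461 labelled 10 min by adjusted p alone, CCGGAAG stood in 16 and CCAAT in 17, against 85 and 109 of the 213 windows of the other tested genes. At least 4 runs of at least 3 G, 1 to 7 bases apart, on either strand, were found in 17.9% of the family's windows, in 17.1% of those of other ZNF genes and in 30.6% of those of protein-coding genes. They stood in 2 of the 32 windows and in 41 of the 213. These matches are a description of the letters.

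The direct comparison at the label of 10 min asks how the compounds differ there, and its contrast leaves out the control group. With RBI2 12 genes were higher than with CX-5461 by edgeR's test and the 2-fold limit, and 0 lower (0 with DESeq2), where 0.635% of all genes were called higher and 0.402% lower. The 12 are 5.38% of the family, and 3.96% of the other ZNF genes were called higher. At an unadjusted p 18 genes were higher and 0 lower, where 3.05% of all genes passed. By adjusted p alone 38 genes were higher, 17.0% of the family, against 2.23% of all genes and 9.69% of the other ZNF genes. The family's median was 0.43, that of the other ZNF genes 0.17 and that of the other genes of chromosome 19 -0.08, with 38 of 223 genes of the family below 0. The same libraries of CX-5461 enter this comparison and the one with the control. ZNF114, ZNF175, ZNF784 and ZNF792 were called in both, which is no independent support since the libraries are shared.

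ZNF460 (chr19:57280051-57294069, + strand), with 11 fingers and a KRAB box, differed most among the 12. It had 3.04 and 4.02 CPM with RBI2 labelled 10 min and 1.08 and 0.78 with CX-5461, a log2 fold change of 1.91 (standard error 0.27, edgeR's adjusted p = 0.00292). The control libraries, at 1.55 and 1.60 CPM, lay between the compounds. ZNF792 differed by 1.76 (standard error 0.21) and ZNF114 by 1.38 (standard error 0.10), with adjusted p of 0.00101 and 2.36e-05 from edgeR's test. ZNF543 (chr19:57320472-57330770, + strand), a close neighbour of ZNF460, had 5.59 and 6.43 CPM with RBI2 labelled 10 min and 2.64 and 2.22 with CX-5461, and differed by 1.30 (standard error 0.20, edgeR's adjusted p = 0.00507). The other genes were ZNF671, ZNF850, ZNF776, ZNF549, ZNF486 and ZNF587, at 1.06 to 1.68, besides ZNF175 at 1.22 and ZNF784 at 1.19. Calls for ZNF175, ZNF543, ZNF587 and ZNF784 were each lost without at least 1 of the 4 libraries compared, at log2 fold changes of 0.75 to 1.29. The number called was 5 without CX-5461 labelled 10 min replicate 1, 7 without its replicate 2 and 7 without RBI2 labelled 10 min replicate 2.

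**Figure D2:**
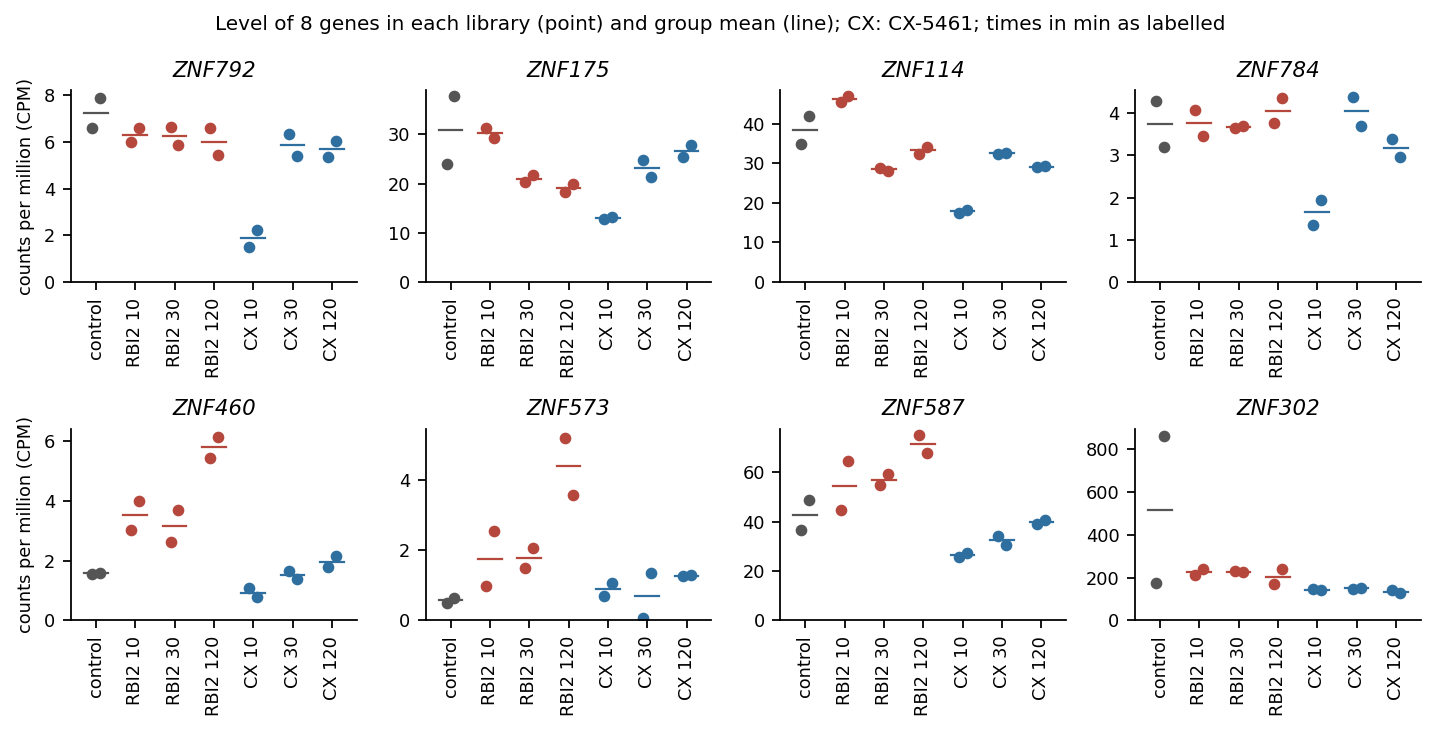
Level in CPM (y axis, from 0) of 8 genes in each of the 14 libraries, with the groups on the x axis; each point is 1 library and each line a group mean of 2. ZNF792, ZNF175, ZNF114 and ZNF784 are lowest with CX-5461 labelled 10 min, ZNF460, ZNF573 and ZNF587 are highest with RBI2 labelled 120 min, and ZNF302 is highest in control replicate 2 (861 CPM).

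With RBI2 labelled 120 min, the family's share of called genes was close to that of all genes. In the family 3 genes were called higher and 1 lower by edgeR's test and the 2-fold limit, among 1.82% of all genes called. By adjusted p alone 17 were higher and 19 lower, 7.62% and 8.52% of the family, against 8.9% and 9.07% of all genes. ZNF460 had 5.43 and 6.16 CPM against 1.55 and 1.60, a log2 fold change of 1.87 (standard error 0.25, edgeR's adjusted p = 0.00497). ZNF573 (chr19:37735833-37817300, - strand) had 5.19 and 3.55 CPM against 0.497 and 0.639, with 88 and 49 reads against 8 and 8, and its log2 fold change was 2.95 (standard error 0.74, edgeR's adjusted p = 0.0268). Its call was lost without control replicate 2 or either treated library, at 2.67 to 3.20, in a fit of the libraries of this comparison alone, at 2.94, and with the transcript length offset, at 1.39. ZNF225 (chr19:44112181-44134822, + strand) fell, with 0.885 and 2.39 CPM against 4.35 and 4.79, by a log2 fold change of -1.51 (standard error 0.37, edgeR's adjusted p = 0.0256). It was -2.35 without replicate 2 of RBI2 labelled 120 min and -0.90 without its replicate 1, where the call was lost (edgeR's adjusted p = 0.138). ZNF490 was the third called higher, at 1.34, with 14 and 8 reads in the control and 28 and 31 with RBI2. Only 45.0% of its 31-base words are its own, so that its read assignment is uncertain. Without RBI2 labelled 120 min replicate 1 the number called was 1, without control replicate 1 it was 20, and with the transcript length offset 2. With only 4 libraries in the model, or with RBI2 labelled 10 or 30 min as the reference, it was 0.

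In the libraries of RBI2 labelled 10 and 30 min, edgeR's test called 0 of the 223 genes at each label, where 0.0778% and 0.0389% of all genes were called. At an unadjusted p with the same fold limit 3 genes passed at each label, against 1.94% and 2.21% of all genes, and DESeq2 called 0 and 1. The family's medians were -0.01 and -0.13. Without control replicate 1 the numbers called were 9 and 17, and without control replicate 2 the number for the label 10 min was 1. For CX-5461 labelled 30 and 120 min edgeR's test also called 0 genes each, where 0% and 0.0454% of all genes were called. An unadjusted p gave 5 at each label, against 2.15% and 1.87% of all genes, and DESeq2 0, and without control replicate 1 the numbers were 16 and 7. The medians were -0.24 and -0.07, and the other genes of chromosome 19 had 0.26 and 0.14. A median below 0 for the family with one above 0 for its neighbours on the chromosome was seen in all 6 comparisons with the control, all of which use control replicate 2. Without that library the family's medians were 0.07, -0.01, -0.01, -0.27, -0.10 and 0.01 for RBI2 and then CX-5461 labelled 10, 30 and 120 min.

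**Figure D3:**
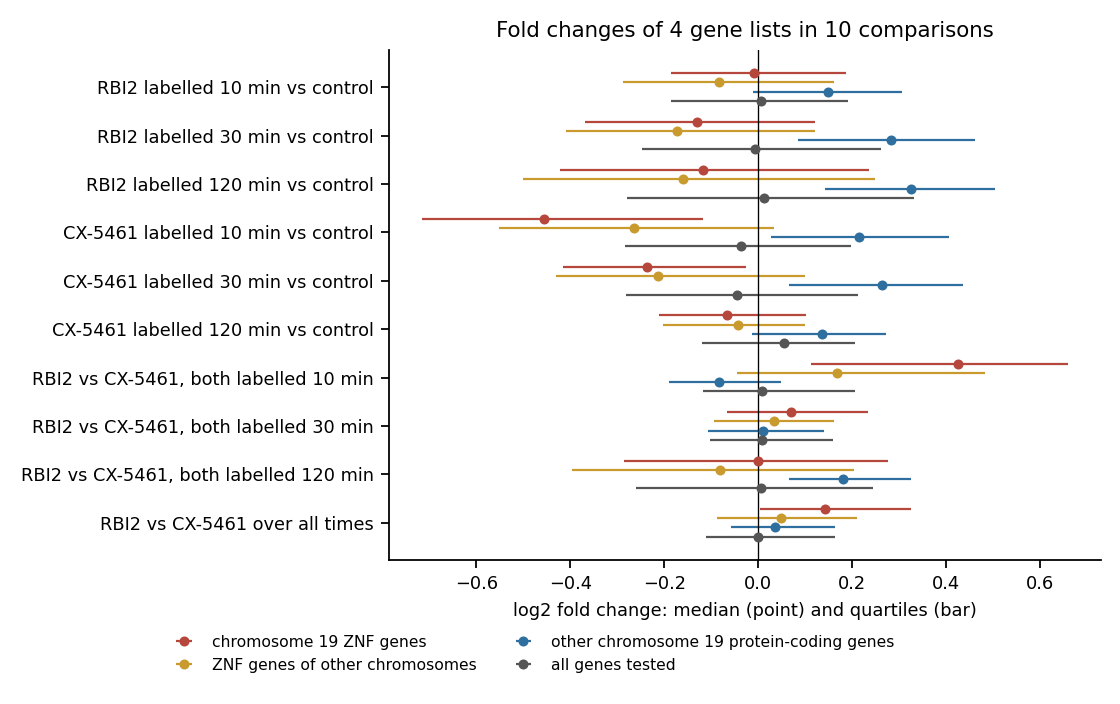
Log2 fold changes (x axis) of 4 gene lists in the 10 comparisons (y axis); points are medians over genes and bars run from the lower to the upper quartile. The chromosome 19 ZNF genes lie furthest from 0 with CX-5461 labelled 10 min against the control (-0.46) and in the direct comparison at that label (0.43).

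Directly compared at the label of 30 min, the compounds differed for 0 of the 223 genes by edgeR's test (0 with DESeq2), where 0.013% of all genes were called, and the median was 0.07. At an unadjusted p 2 genes passed, against 1.45% of all genes. At the label of 120 min, ZNF460 and ZNF8 were called higher with RBI2, among 1.67% of all genes called. ZNF460 differed by 1.56 (standard error 0.24) and ZNF8, which had 24.1 and 26.0 CPM with RBI2 and 10.9 and 12.4 with CX-5461, by 1.11 (standard error 0.17), each with an adjusted p of 0.00692 from edgeR's test. Of the 31-base words of ZNF8, 70.1% were its own. By adjusted p alone 10 genes were higher and 11 lower with RBI2, 4.48% and 4.93% of the family, against 5.28% and 10.9% of all genes. Without RBI2 labelled 120 min replicate 2 the number called was 0, it was 6 without control replicate 2, and it was 4 when either replicate 1 of the control or replicate 1 of CX-5461 labelled 30 min was left out.

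Over all times, with the label as a term and only the 12 treated libraries, 4 genes were called higher with RBI2, among 0.927% of all genes called. They were ZNF460 at 1.51 (standard error 0.17, edgeR's adjusted p = 0.000967), ZNF573 at 1.41 (standard error 0.39, adjusted p = 0.043), ZNF221 at 1.08 and ZNF543 at 1.03. The call for ZNF573 was lost without any one of 9 of the 12 libraries, at 1.25 to 1.54. That for ZNF543 was lost, at 0.96 to 0.98, without replicate 2 of CX-5461 labelled 10 min, of RBI2 labelled 10 min or of RBI2 labelled 120 min. ZNF460 had 2.62 to 6.16 CPM in the 6 RBI2 libraries and 0.78 to 2.14 in the 6 of CX-5461, so that the compounds did not overlap at any label. By adjusted p alone 32 genes were higher with RBI2 and 1, ZNF181, lower, where 6.8% of all genes were higher and 1.96% lower. The 32 are 14.3% of the family. By the same rule 10.1% of the other ZNF genes and 7.52% of the other genes of chromosome 19 were higher. The number called was 2 when replicate 2 of RBI2 was left out at any label, and also without replicate 2 of CX-5461 labelled 10 min and without replicate 1 of CX-5461 labelled 120 min.

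The difference between the compounds at one label was then set against that at another, with the interaction term of edgeR's test. For the label 10 min against 30 min 3 genes of the family were called, ZNF792, ZNF114 and ZNF175, among 0.499% of all genes. For 10 min against 120 min 11 were called, among 1.35% of all genes. In each of these the log2 fold change of RBI2 over CX-5461 was larger at the label of 10 min. It was not above 0 at the other label for every gene. At 30 min ZNF114 had -0.19, and for ZNF175 the gap, 1.35, exceeded the value at 10 min, 1.22. The gap from the label of 120 min was 1.69 for ZNF175, 1.16 for ZNF549 and 1.40 for ZNF776. It exceeded their values at 10 min, 1.22, 1.08 and 1.11. Their fitted levels at 120 min were thus lower with RBI2. Levels at 120 min were also lower with RBI2 for ZNF100, ZNF112, ZNF180, ZNF227, ZNF772 and ZNF780A. Of the 11, only ZNF114 and ZNF792 were not lower there. For 120 min against 30 min 0 genes of the family and 0% of all genes were called.

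Values below 0 with CX-5461 labelled 10 min were spread over the chromosome (plot by order along chromosome 19). The 246 genes formed 20 clusters when a gap of 500 kb between starts ended a cluster, and 8 clusters held at least 10. All 27 tested genes of the cluster from ZNF101 to ZNF254 (chr19:19668796-24129968) had a log2 fold change below 0, with a median of -0.65. The cluster from ZNF575 to ZNF180 (chr19:43525497-44500524) had a median of -0.67, that from ZNF565 to ZNF573 (chr19:36182276-37817300) -0.47 with 24 of 25 genes below 0, and that from ZNF175 to ZNF331 (chr19:51571283-53580269) -0.48 with 35 of 37 below 0. These counts were not particular to that label. With CX-5461 labelled 30 min, where no gene of the family was called by edgeR's test, the clusters from ZNF101, ZNF565 and ZNF175 also had 27 of 27, 24 of 25 and 35 of 37 genes below 0, with medians of -0.45, -0.36 and -0.35. With CX-5461 labelled 120 min and RBI2 labelled 30 min the cluster from ZNF101 had 25 and 24 of 27 below 0. With RBI2 labelled 10 and 120 min it had 15 and 19 below 0. All of these use the same control libraries. The cluster from ZNF653 to ZNF791 (chr19:11483427-12640098) had a median of -0.13 with CX-5461 labelled 10 min, and that from ZNF628 to ZNF835 (chr19:55476617-56671783), where 6 of 16 genes had a KRAB box, -0.03. In the terminal cluster from ZNF264 to ZNF446 (chr19:57191500-58481230) the median was -0.46. Of its 42 tested genes, 15 were higher with RBI2 than with CX-5461 at the label 10 min by adjusted p alone, out of 38 in the family. By the same rule 17.0% of the family, 9.69% of the other ZNF genes and 2.23% of all genes were higher. The cluster from ZNF653, with 25 tested genes, had 0. The clusters were not tested against each other.

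**Figure D4:**
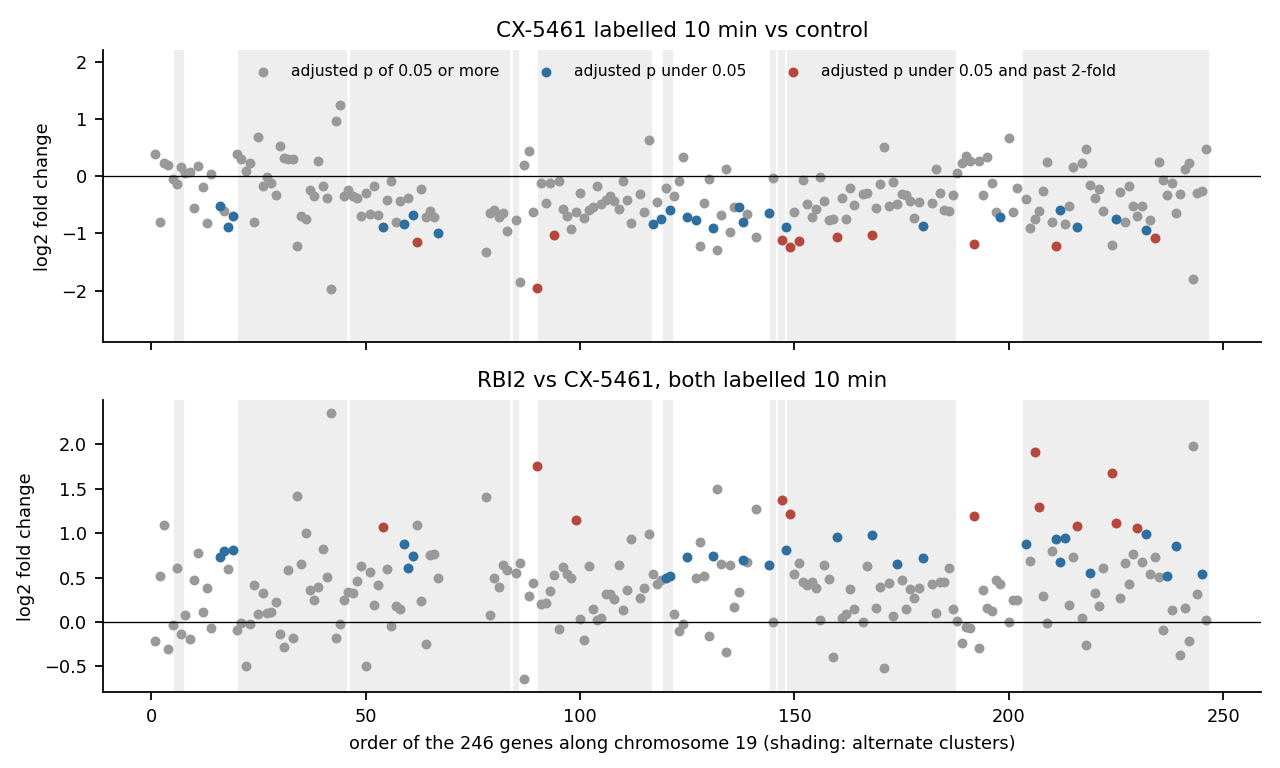
Log2 fold changes (y axis) of the 223 tested genes by their order along chromosome 19 (x axis), with alternate clusters shaded, for CX-5461 labelled 10 min against the control and for RBI2 against CX-5461 at that label; colours mark the adjusted p and the 2-fold limit. In the upper panel 181 genes lie below 0, and in the lower panel 38 do.

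Genes with a KRAB-like box had a median of -0.51 with CX-5461 labelled 10 min (194 tested, 31 lower by adjusted p alone), and those without one -0.09 (29 tested, 3 lower). The gap was about as large in some other comparisons with the same control. The medians were -0.25 and 0.22 with CX-5461 labelled 30 min and -0.16 and 0.24 with RBI2 labelled 120 min. It was smaller with RBI2 labelled 30 min (-0.17 and 0.16) and CX-5461 labelled 120 min (-0.09 and 0.06). With RBI2 labelled 10 min there was almost no gap (-0.01 and 0.0003). In the direct comparison at the label 10 min the medians were 0.45 and 0.08. These groups also differ in base composition, with a median GC content of the transcripts of 45.6% and 61.8%, and in level, 3.34 and 7.27 TPM. When the tested genes were split in 3 by GC content, the lowest group had a median of -0.58 and the highest -0.26. This split too was as large with CX-5461 labelled 30 min (-0.38 and -0.02) and RBI2 labelled 30 min (-0.30 and 0.07). It was larger with RBI2 labelled 120 min (-0.32 and 0.12). It was smaller with CX-5461 labelled 120 min (-0.16 and 0.05) and RBI2 labelled 10 min (-0.09 and 0.03). In the direct comparison at the label 10 min the lowest and highest groups had 0.45 and 0.31. With an offset for GC content and length the family's medians were -0.38 against the control and 0.36 in the direct comparison. Genes with at least 90% of their 31-base words to themselves had -0.45 and the rest -0.46.

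**Figure D5:**
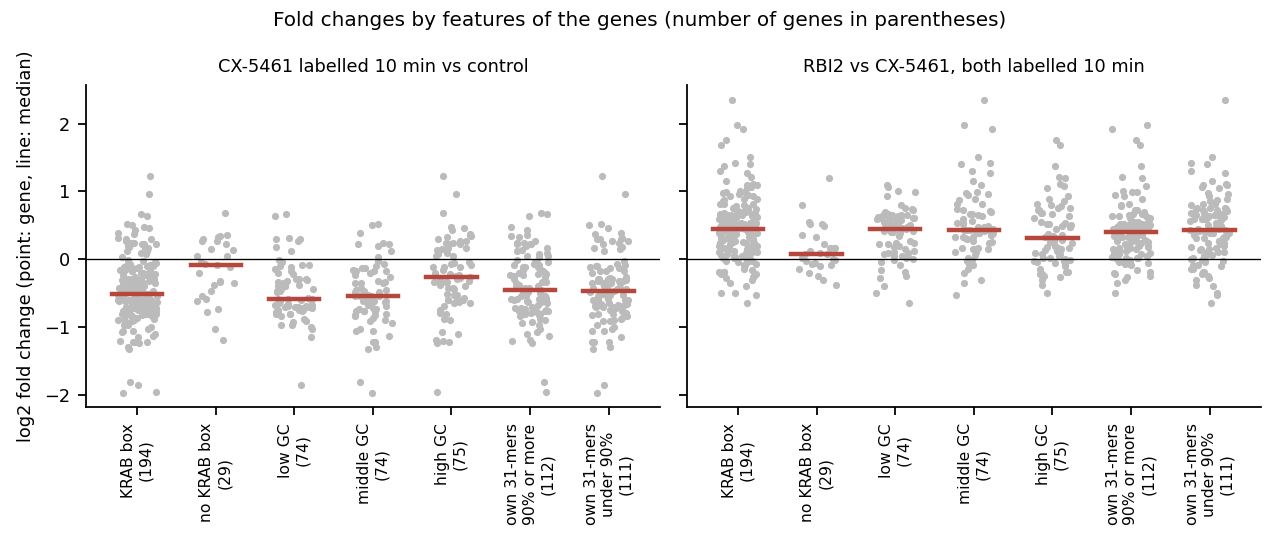
Log2 fold changes (y axis) of the tested genes grouped by KRAB box, GC content and the share of 31-base words found in no other gene (x axis, number of genes in parentheses), with each point a gene and each line a median. Genes without a KRAB box lie closest to 0 in both comparisons (-0.09 and 0.08).

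Genes of the family with a described role were taken as a list of 11. ZNF417 (chr19:57900296-57916610, - strand) and ZNF587 (chr19:57849859-57865117, + strand) are near copies that repress HERV-K elements, with 51.0% and 63.4% of their 31-base words to themselves. ZNF587 had 44.6 to 75.2 CPM in the 6 RBI2 libraries, 25.4 to 40.6 in the 6 CX-5461 libraries, and 36.6 and 48.6 in the control. The compounds did not overlap, and over all times ZNF587 was higher with RBI2 by 0.91 (standard error 0.08, edgeR's adjusted p = 0.000701), ZNF417 by 0.52 (adjusted p = 0.0141). ZNF808, which binds MER11 elements and is needed for the human pancreas, had 6.98 to 11.1 CPM with RBI2 and 4.10 to 6.90 with CX-5461, a difference over all times of 0.68 (adjusted p = 0.00226 from edgeR's test). Of its 31-base words 68.7% were its own.

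ZNF274 binds the coding ends of other zinc finger genes and recruits SETDB1 there. It had 46.4 and 47.9 CPM with RBI2 labelled 10 min and 31.4 and 34.6 with CX-5461, a difference of 0.52 (adjusted p = 0.0132 from edgeR's test), and 39.2 and 44.1 in the control. ZNF91 and ZNF93, which repress SVA and LINE-1 elements, had 6.72 to 14.7 and 5.77 to 12.1 CPM over the 14 libraries, each highest in control replicate 2, and neither had an adjusted p under 0.05 in any comparison. The same held for ZNF224, ZNF331, which is imprinted, and ZNF382, at 5.47 to 10.1, 21.2 to 28.9 and 0.533 to 1.74 CPM.

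Of 24 genes of the KRAB corepressor pathway, all tested, SETDB1 was the only one with an adjusted p under 0.05 with CX-5461 labelled 10 min. It had 12.6 and 12.6 CPM there, 22.2 and 25.6 in the control and 18.3 to 24.6 in the other 10 libraries, a log2 fold change of -0.92 (standard error 0.10, edgeR's adjusted p = 0.000567). At that label SETDB1 was higher with RBI2 than with CX-5461, by 0.60 (adjusted p = 0.00971). TRIM28, itself on chromosome 19 (chr19:58544064-58550722), had 387 CPM in control replicate 2 and 552 to 665 in the other 13 libraries, and its adjusted p was at least 0.127 in every comparison. With RBI2 labelled 120 min 5 genes of the pathway were higher (CHD3, CHD4, DNMT1, EHMT1 and EHMT2) and 5 lower (HDAC2, MORC3, PPHLN1, SMARCAD1 and SUV39H2) by adjusted p alone, with log2 fold changes between -0.79 and 0.60. That is 20.8% of the pathway each way, against 8.9% and 9.07% of all genes, and the 1 gene lower with CX-5461 labelled 10 min is 4.17%, against 2.98%. The pathway's median was 0.01 in that comparison and -0.07 with CX-5461 labelled 10 min.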

How the data were processed

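Poly(A) RNA of 14 libraries was sequenced. Per the labels and the study's methods, the authors estimated transcript abundances with Salmon (version 1.3.0 in the submitters' processing notes) and deposited estimated counts and TPM for each transcript. They had taken out reads that align to the ribosomal DNA repeat. Here, transcript identifiers were looked up in GENCODE release 44 on GRCh38 (225662 of 228754 found), and the deposited expected counts were summed per gene and rounded. Unmatched transcripts held 1.03% to 1.13% of reads and were left out. Genes kept by edgeR's filterByExpr (minimum count 10) were fitted with edgeR 4.0.16 under R 4.3.3, with TMM scaling and the quasi-likelihood test, all 14 libraries in one model of 7 groups, except that the comparison over all times used the 12 treated libraries with the time label as a term. Benjamini-Hochberg adjustment ran over all 15426 genes, and a gene was called at an adjusted p under 0.05 with at least a 2-fold change. KRAB-like boxes were found with a profile (pyhmmer 0.12.3) and fingers by pattern in translated GENCODE coding sequences, and promoters came from RefSeq (GRCh38.p14). The members and lists were chosen with earlier results of these data known.

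Named genes were the 2 largest rises and falls called in each comparison, the 5 highest in level, those called in at least 2 comparisons, and 11 with a described role, besides TRIM28. ZNF17, ZNF181, ZNF221, ZNF260, ZNF419, ZNF486, ZNF490, ZNF549, ZNF606, ZNF671, ZNF701, ZNF708, ZNF709, ZNF766, ZNF776, ZNF850, the genes named only by an interaction and the corepressor genes other than TRIM28 were named after their values were seen. DESeq2 1.42.0, other offsets, filters and references, a replicate block and leaving out each library were alternatives. A test used simulated data made like CX-5461 labelled 10 min against the control. It counted recovery by an adjusted p under 0.05 alone, with no limit on the fold change. Recovered were 28 of 50 genes raised 2-fold, 38 of 49 raised 3-fold and 44 of 50 raised 4-fold. Of genes lowered to 0.5 of their level, 28 of 49 were recovered. By the same rule there were 8 false calls among 15172 genes. Recovery with the 2-fold limit of the calls was not counted.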

Additional observations from a re-analysis of the deposited data

Results flagged for a closer look

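The difference between RBI2 and CX-5461 depended on the time label for some genes of the family, by the interaction term of edgeR's test, with p-values adjusted over all genes. The log2 fold change of RBI2 over CX-5461 was larger at the label of 10 min than at 30 min by 1.66 for ZNF792, 1.57 for ZNF114 and 1.35 for ZNF175. Set against the label of 120 min it was larger at 10 min by 2.16 for ZNF112, 1.69 for ZNF175, 1.66 for ZNF792, 1.54 for ZNF772, 1.40 for ZNF776 and 1.33 for ZNF100. The same difference was 1.23 for ZNF180, 1.19 for ZNF114, 1.16 for ZNF549, 1.11 for ZNF227 and 1.07 for ZNF780A. All of these share the libraries of CX-5461 labelled 10 min. Each rests as well on the libraries of RBI2 at that label and of both compounds at the other label. At the label of 120 min, each gene set against it other than ZNF114 and ZNF792 had lower levels with RBI2 than with CX-5461.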

How the results depend on the processing

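The numbers of family genes called depended on single libraries. In this section no share of all genes is given beside the numbers from any alternative. Above, none is given beside those from fits with a library left out or with another offset, reference, tool or model. Numbers without such a share are therefore not read as a result about the family in particular. Leaving out 1 library at a time gave, for RBI2 labelled 10, 30 and 120 min against the control, 0 to 9, 0 to 17 and 1 to 20, and for CX-5461 3 to 42, 0 to 16 and 0 to 7. Between the compounds it gave 5 to 16, 0 to 0 and 0 to 6 at the 3 labels and 2 to 4 over all times. With no filter on low counts the numbers were 3, 6 and 8 for RBI2, 18, 2 and 4 for CX-5461, and 19, 1 and 4 between the compounds. With no limit on the fold change they were 36 for RBI2 labelled 120 min, 34 for CX-5461 labelled 10 min, and 38, 21 and 33 between the compounds at 10 min, at 120 min and over all times. At an unadjusted p they were 3, 3 and 7 for RBI2, 19, 5 and 5 for CX-5461, and 2 and 5 between the compounds at 30 and 120 min. DESeq2 called 1 gene for RBI2 labelled 30 min. The length offset gave 2 for RBI2 labelled 120 min and 6 for CX-5461 labelled 10 min, and a model of only the libraries compared gave 0 for each. References chosen after seeing the data gave 0 and 0 for RBI2 labelled 120 min, against its labels 10 and 30 min, and 2 and 5 for CX-5461 labelled 10 min, against its labels 30 and 120 min. The causes were not tested. Of 493 alternatives for 20 results on named genes, 428 kept the direction and the call, 65 lost the call and 0 turned. With RBI2 labelled 120 min, ZNF225 lost its call without control replicate 2 (-1.46) or replicate 1 of the treatment (-0.90). Between the compounds at 120 min, ZNF8 and ZNF460 lost theirs without RBI2 labelled 120 min replicate 2, where the log2 fold changes were still 1.07 and 1.49. Of 223 alternatives for the medians, 18 moved by at least the spread between replicates (0.0826). That spread is pooled over the 7 groups and the control weighs most in it. The standard deviation was 0.196 in the control and 0.0019 to 0.073 in the other groups.

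Replicate numbers did not pair the samples: the correlation of deviations ran from -0.18 to 0.18 and exceeded 0.1 in 3 of 21 pairs of groups. With a replicate block the numbers were 3 for RBI2 labelled 120 min, 11 for CX-5461 labelled 10 min, 13, 0 and 2 between the compounds and 4 over all times. The 23 genes with at most 53 reads in all could not be tested at this depth.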
